A study of Homo sapiens with 12 samples.

Results

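Transcripts of L428 cells exposed for 24 h to 71.25 nM ixazomib were compared with those of control L428 cells. L428 is an established Hodgkin lymphoma cell line, and ixazomib is an oral proteasome inhibitor. The comparison took its samples by title, 3 at 71.25 nM ixazomib and 3 controls, which made 6 of the 12 samples of the series. The other 6 held 3 samples of L428 cells given 25 nM ixazomib for 24 h, used here as a lower dose. The last 3 were of L428 cells resistant to ixazomib. These resistant samples entered only the normalization, the probe filter, the choice of each gene's probe and the shared estimate of the spread. All groups come from 1 cell line with no allele or transgene named, and the labels do not say what the control cells received. Replicate 1 of the samples titled 71.25 nM is described as 25 nM in another field, and here it counts as 71.25 nM, as its title and treatment label have it. The series text names biological triplicates for the 25 nM treatment alone, so nothing shows that the other triplicates are separate cultures, and their p-values may rest on technical spread alone.

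The proteasome is a barrel-shaped protease that degrades proteins tagged with ubiquitin. Its 20S core holds the catalytic subunits, among them PSMB5, the site that ixazomib blocks, and its 19S regulator recognises, unfolds and admits tagged proteins. When degradation stalls, misfolded proteins accumulate. Heat shock factors then switch on cytosolic chaperones, the membrane-bound factor NRF1 (gene NFE2L1) switches on new proteasome subunits, and sensors of the endoplasmic reticulum (ER) slow translation and raise ATF4 and CHOP. Classical Hodgkin cells derive from B cells that have lost much of their B-cell programme and live on strong NF-kB and JAK-STAT activity, and the NF-kB inhibitor IκB is itself a proteasome substrate.

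Illumina HT-12 bead arrays gave the RNA levels, and each of the 6 arrays detected 17100 to 18179 of 47227 probes at a detection p under 0.05. Levels below are background-corrected, quantile-normalized signals on the log2 scale, and differences are log2 differences, 71.25 nM minus control, with the standard error (SE) of the fit, n = 3 arrays per group. Arrays are numbered as in the deposited signal table, 1 to 3 for controls, 4 to 6 for 25 nM and 7 to 9 for 71.25 nM. Each gene is read on its brightest detected probe, and a gene is said to have risen or fallen only where limma's moderated test gave an adjusted p under 0.05 over all probes. The 3 arrays at 71.25 nM correlated with each other at r = 0.9913 to 0.9928, the 3 control arrays at 0.9898 to 0.9927, and pairs of a 71.25 nM and a control array at 0.9637 to 0.9687. All 12 Hodgkin marker genes were measured, and 2 rose and 6 fell (median -0.29), 3 of them by at least 2-fold. One of them, TNFRSF8 (CD30), was detected on every array, at 9.46, 9.66 and 9.23 at 71.25 nM, against 9.71, 9.76 and 9.69 in controls. Of 8 B-cell markers 5 passed the filter on dim probes, of which BLK fell and the others were not called, and PAX5 was not detected. Of 12 T and NK cell markers 2 passed it and neither was called, CD2, detected on all arrays at 71.25 nM and no control array (0.25), and NKG7. The defining T-cell genes CD3D, CD3E and CD3G were not detected. GZMB, a granzyme of T and NK cells that was chosen after its value was seen, was detected on 3 arrays at 71.25 nM and no control array and was at least 1.47-fold higher. Of 10 myeloid markers, ITGAM, S100A8, S100A9 and MPO were also not detected, CD68, which lysosomes of many cells carry, rose by 1.55, AIF1 fell (-0.71), and FCGR3A fell (-0.42) with a call that 14 of 20 alternative settings ended (adjusted p up to 0.274). Since arrays of whole cultures were compared, fewer cells with a transcript and less of it in each cell cannot be told apart.

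At 71.25 nM, 5840 of 14953 genes (39.1%) changed, 2902 upward (19.4%) and 2938 downward (19.6%). The groups did not overlap for 7199 genes (48.1%). At least 2-fold rises were called for 486 genes (3.25%) and at least 2-fold falls for 410 (2.74%). Beyond 4-fold there were 56 rises and 21 falls, and beyond 8-fold 11 rises and 2 falls, so the largest changes leaned upward. Quantile normalization sets changes relative to the other genes. When arrays were scaled to housekeeping genes instead, the median of all genes shifted by 0.131 and the share of rises among called genes was 64.9% instead of 49.7%. The genes named for this scaling include GUSB, which fell, and PGK1, of which a probe rose. How far these moved the scale was not tested. With no background correction 313 genes passed 2-fold in place of 896, so the sizes of the folds below belong to the correction used.

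**Figure D1:**
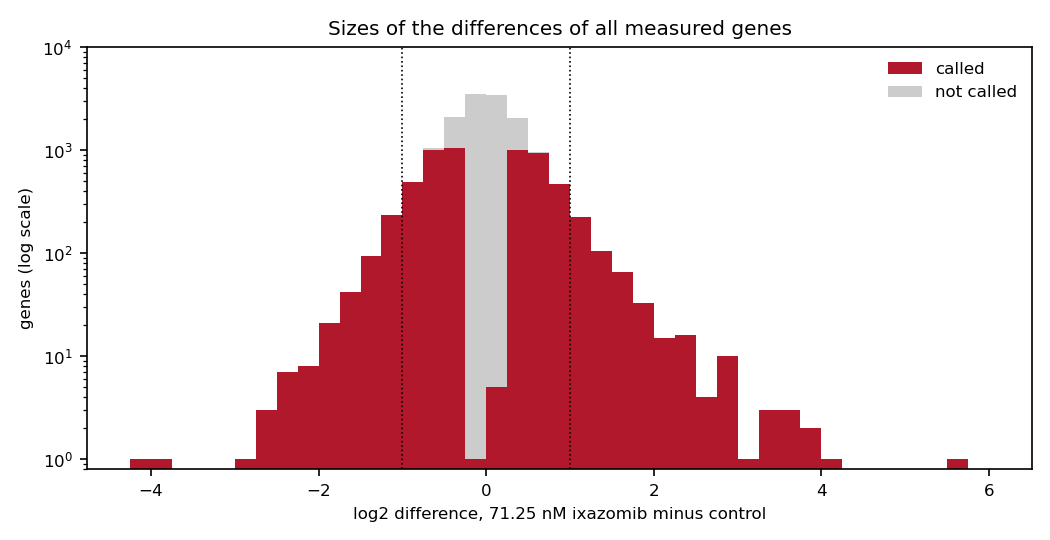
Number of genes (vertical axis, log scale) by log2 difference, 71.25 nM ixazomib minus control (horizontal axis, bins of 0.25); red bars are called genes and grey bars the rest, and dotted lines mark a 2-fold change. The tail beyond 8-fold holds 11 rises and 2 falls.

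The 15 largest rises were led by heat shock genes, chemokines and a cytokine. HSPA6, a strictly stress-induced HSP70 chaperone, had 10.54, 10.91 and 10.58 at 71.25 nM, against 5.05, 5.20 and 4.91 in controls (difference 5.63 ± 0.12, adjusted p = 2.74e-12). Its control signal lay near the detection limit, with 2 of 3 control arrays above it. CCL3, CCL3L1 and CCL3L3, near-identical genes for the chemokine MIP-1 alpha whose probes may share signal, differed by 3.68, 3.49 and 3.88. IL9, a T-helper cytokine made by some Hodgkin cells, had 9.50, 9.51 and 9.70 at 71.25 nM, against 5.66, 5.66 and 5.97 in controls (difference 3.80 ± 0.12). GABARAPL1, an ATG8-family protein of the autophagosome, had 10.05, 9.94 and 10.16 at 71.25 nM, against 6.54, 6.51 and 6.06 in controls (difference 3.68 ± 0.13). IL8, now named CXCL8, a neutrophil chemokine, had 9.72, 9.85 and 9.92 at 71.25 nM, against 6.43, 6.40 and 6.43 in controls (difference 3.41 ± 0.10). The arrays of each group stood clear of the other group for each of these genes. DUSP1, a phosphatase that switches off MAP kinases, rose by 2.96, the RNA-binding protein gene RBM11 by 2.94 and RN5S9, a 5S ribosomal RNA probe, by 2.91.

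The largest falls were in genes of more scattered roles. The symbol LOC389816, which has no current name in the gene table used here, had 6.67, 6.81 and 6.58 at 71.25 nM, against 10.75, 10.57 and 10.79 in controls (difference -4.02 ± 0.12). LRRC26, an auxiliary subunit of BK potassium channels, had 6.50, 6.74 and 6.47 at 71.25 nM, against 10.32, 10.25 and 10.57 in controls (difference -3.81 ± 0.12). SLC2A5, the fructose transporter GLUT5, had 6.99, 6.87 and 6.77 at 71.25 nM, against 9.85, 9.73 and 9.89 in controls (difference -2.95 ± 0.12). In each of these 3 genes the distance between the groups was many times the spread within them. LSP1, an actin-binding protein of leukocytes, had 7.14, 6.91 and 7.14 at 71.25 nM, against 9.89, 9.66 and 8.97 in controls (difference -2.44 ± 0.20), with a wider spread among controls. KISS1R, the kisspeptin receptor, differed by -2.67, HSD3B7, an enzyme of bile acid synthesis, by -2.44, and TMEM158 by -2.30. The near-identical FRG2B and FRG2 differed by -2.65 and -2.49, CYP4Z2P, a cytochrome P450 pseudogene, by -2.56 on 1 of 2 probes (-0.08 on the other, not called), UMODL1 by -2.30, ACCN2, the acid-sensing channel ASIC1, by -2.28, RPL36A, a large-subunit ribosomal protein, by -2.27, and SLC26A9, an anion transporter, by -2.20. At 71.25 nM, UMODL1 and SLC26A9 were detected on 1 of 3 arrays and ACCN2 on 2 of 3, so these 3 differences are measured against levels near background.

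**Figure D2:**
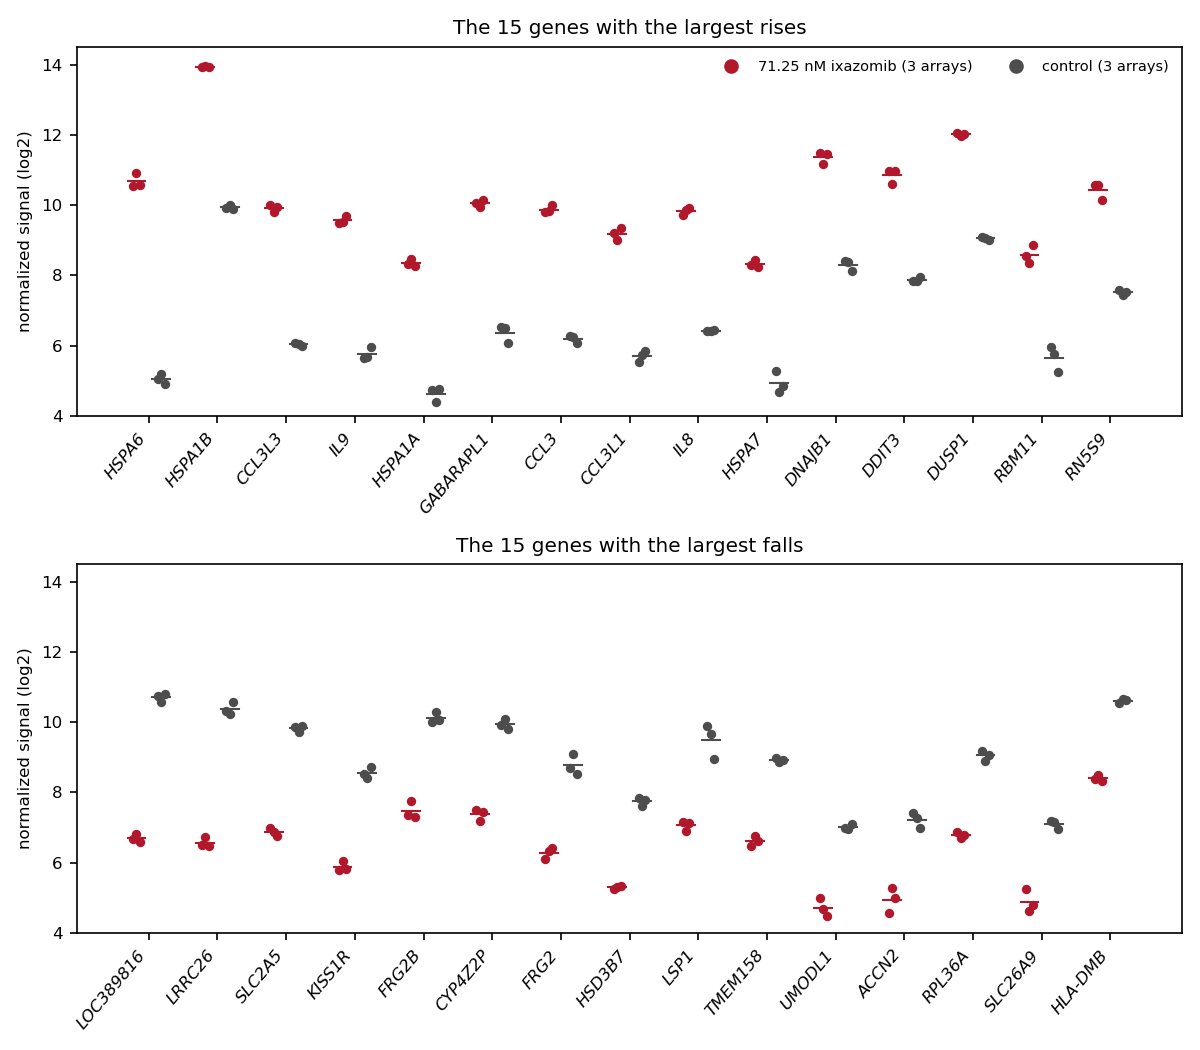
Normalized signal (log2, vertical axis) of the 15 genes with the largest rises (top) and the 15 with the largest falls (bottom) on each array; points are arrays, red for 71.25 nM ixazomib and grey for control, and bars are group means. In all 30 genes the 3 arrays of 71.25 nM lie apart from the 3 control arrays, with LSP1 and RBM11 showing the wider spreads.

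Genes of the cytosolic heat shock response rose together. Of 13 measured HSP70 and HSP110 chaperones 12 rose and 0 fell (median 0.85), against 19.4% and 19.6% of all genes. HSPA1B, the main inducible HSP70, had 13.92, 13.96 and 13.93 at 71.25 nM, against 9.91, 10.00 and 9.89 in controls (difference 4.0 ± 0.09), and its signals at 71.25 nM before normalization, 15396.0, 16211.1 and 15734.6, were near the highest of any gene on those arrays, 20791.0 to 22604.0. Its near-identical neighbour HSPA1A was detected on no control array and was at least 11-fold higher at 71.25 nM (means 8.35 at 71.25 nM, against 4.63 in controls). HSPH1, an HSP110 nucleotide exchange factor, rose by 1.48 ± 0.11, and the constitutive members HSPA8, HSPA4 and mitochondrial HSPA9 rose less, by 0.74, 0.71 and 0.50, and HSPA9 was not called under median scaling (adjusted p = 0.123). HSPA14, a ribosome-associated HSP70, was the 1 member not called (difference 0.01 ± 0.10). With genes not detected in 1 group set to their bound, the median of these 13 became 0.74, and no list median moved by more than 0.114.

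Heat shock factors bind inverted repeats of a short element, and the promoters of HSPA6 and HSPA1B, the largest rises of the chaperones, are shown with it. Capitals mark GAANNTTC, searched on both strands in the window from 250 bases before to 50 bases after the gene start (RefSeq, GRCh38.p14). HSPA6 lies at chr1:161524290-161524589, plus strand, and HSPA1B at chr6:31827488-31827787, plus strand.
HSPA6: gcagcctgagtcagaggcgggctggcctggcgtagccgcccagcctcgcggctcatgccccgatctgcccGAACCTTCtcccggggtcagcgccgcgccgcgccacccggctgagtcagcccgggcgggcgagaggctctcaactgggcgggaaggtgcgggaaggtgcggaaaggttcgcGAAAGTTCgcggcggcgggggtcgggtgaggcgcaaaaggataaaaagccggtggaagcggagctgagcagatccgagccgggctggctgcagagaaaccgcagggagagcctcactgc
HSPA1B: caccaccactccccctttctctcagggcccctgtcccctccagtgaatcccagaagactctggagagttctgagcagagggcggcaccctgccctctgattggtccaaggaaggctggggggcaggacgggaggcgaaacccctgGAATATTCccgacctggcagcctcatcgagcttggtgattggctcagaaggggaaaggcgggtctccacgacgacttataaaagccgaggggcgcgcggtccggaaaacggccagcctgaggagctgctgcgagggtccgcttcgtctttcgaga
A promoter was at hand for 9299 of the 14953 genes. The 8-letter element stood in 5 of 11 promoters of the HSP70 and HSP110 genes (45.5%), in 4.85% of the promoters of measured genes and in 6.87% of all 27305 promoters in the table. Its longer form, which contains the short one and has a further GAA 2 bases after it or TTC 2 bases before it, stood in 2 of the 11 (18.2%) and in 0.35% of the measured genes' promoters. DNAJB1, BAG3 and HSPH1 rose with no match in this window. The short element was also in 5 of 43 promoters of genes that rose at least 4-fold (11.6%) and in 3 of 14 of genes that fell at least 4-fold (21.4%). Those 3 fallen genes were CYP4Z1 and the near-identical FRG2 and FRG2B. In the MHC class II list the short element stood in 3 of 12 promoters (25.0%).

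J-domain proteins hand substrates to HSP70, and of 26 measured 16 rose and 5 fell (median 0.41). DNAJB1, the stress-induced HSP40, had 11.48, 11.18 and 11.46 at 71.25 nM, against 8.40, 8.37 and 8.12 in controls (difference 3.07 ± 0.12). DNAJB2, a ubiquitin-binding member, rose by 1.99 on 1 of 2 probes (-0.09 on the other, not called) and DNAJA4 by 1.72. DNAJC19, which works inside mitochondria, fell (-0.95). The ER reductase DNAJC10 also fell on 1 of 2 probes (-0.83, with -0.165 on the other, not called). Of 20 HSP90 genes, co-chaperones and heat shock factors 12 rose and 2 fell (median 0.46). HSP90AB1 and HSP90AA1, the cytosolic HSP90s, rose by 0.99 ± 0.11 and 0.53 ± 0.09 (HSP90AA1 not called under median scaling, adjusted p = 0.0696), and AHSA1, which stimulates the HSP90 ATPase, by 0.73 ± 0.11. TRAP1, the mitochondrial HSP90, fell (-0.84 ± 0.09), as did STUB1, the ubiquitin ligase of chaperone clients (-0.46 ± 0.12). HSF1, the master heat shock factor, which is controlled mainly after translation, was not called (0.15 ± 0.11), while HSF2 rose by 0.68 ± 0.16. Of 11 BAG and small heat shock genes 3 rose and 1 fell (median 0.17). BAG3, a co-chaperone that directs clients to autophagy, had 11.40, 11.48 and 11.52 at 71.25 nM, against 8.80, 8.65 and 8.87 in controls (difference 2.69 ± 0.11), with no overlap, and HSPB1 (HSP27) rose by 1.65 ± 0.10. BAG5 was the 1 fall (-0.46, with -0.34 on its other probe, not called). The third rise, that of CRYAB, was called at levels detected in neither group, and no fold is given for it. That call was lost without control array 1 or 71.25 nM array 8 or 9 (adjusted p up to 0.0682). Of 17 chaperonin and prefoldin genes 7 rose and 0 fell (median 0.16), the largest being PFDN1 (0.62).

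Subunits of the drug's own target rose as a block. Of 14 measured 20S core subunits 12 rose and 0 fell (median 0.52), and of 19 19S subunits 16 rose and 1 fell (median 0.73). PSMB5, the subunit bound by ixazomib, had 12.21, 12.20 and 12.36 at 71.25 nM, against 11.27, 11.42 and 11.29 in controls (difference 0.93 ± 0.10, adjusted p = 5.11e-06), with no overlap of the groups. PSMC4, an ATPase of the 19S base, had 10.97, 10.89 and 11.09 at 71.25 nM, against 9.68, 9.75 and 9.49 in controls (difference 1.34 ± 0.11). PSMD2, a scaffold subunit that receives ubiquitin carriers, had 11.47, 11.29 and 11.31 at 71.25 nM, against 10.01, 10.16 and 9.94 in controls (difference 1.32 ± 0.10). The ubiquitin receptor gene ADRM1 rose by 1.07 ± 0.10 and the catalytic PSMB6 and PSMB7 by 0.58 and 0.78, PSMB6 without a call under median scaling (adjusted p = 0.0534). Only PSMA2 and PSMA3 among core subunits and PSMD11 and PSMD12 among 19S subunits were not called, and PSMD7 fell (-0.58 ± 0.13). The mean of the PSMD12 probes did rise (0.55, adjusted p = 0.0011). Of the 2 PSMA3 probes, at 0.298 and 0.362, 1 was called as a rise. Assembly factors and activators did not move as a block. Of 14 of these 2 rose and 3 fell (median -0.20), POMP, the maturation factor of the core, rose by 0.58 ± 0.11 (adjusted p = 0.0504 under median scaling) and the activator PSME4 by 0.62 ± 0.11, while the assembly factor PSMG4 fell (-0.58). The other PSMG4 probe, at -0.259, was not called. The activator subunits PSME1 and PSME3 also fell (-0.33 and -0.42), but PSME1 was not called without control array 2 or 71.25 nM array 7 or 8 (adjusted p up to 0.0738), nor PSME3 without control array 1 (0.0564). Of 8 genes of the immunoproteasome and of peptide transport 0 rose and 4 fell (median -0.32). The inducible catalytic subunits PSMB8, PSMB9 and PSMB10 fell by 0.77, 0.66 and 0.50 on the log2 scale, while their constitutive counterparts PSMB5, PSMB6 and PSMB7 rose.

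NFE2L1, the factor that drives proteasome genes after inhibition, had 8.94, 8.82 and 8.81 at 71.25 nM, against 7.71, 7.58 and 7.64 in controls (difference 1.21 ± 0.10). Of 8 measured CNC and MAF genes 6 rose and 1 fell (median 0.63). The small MAF partner MAFG rose by 1.25 ± 0.13, NFE2L2 (NRF2) by 0.63 ± 0.11 and NGLY1, the enzyme that removes the glycans of NRF1, by 0.62 ± 0.12. MAFF was not detected in controls and was at least 1.88-fold higher at 71.25 nM (means 5.79 at 71.25 nM, against 4.56 in controls). NFE2L3, a CNC factor related to NFE2L1, moved the other way, with 7.51, 7.41 and 7.36 at 71.25 nM, against 9.45, 9.71 and 9.46 in controls (difference -2.11 ± 0.10). Among 14 ubiquitin and shuttle genes 5 rose and 1 fell (median 0.18). ZFAND2A (AIRAP), a stress-induced protein of the proteasome, had 11.29, 11.34 and 11.32 at 71.25 nM, against 8.43, 8.42 and 8.65 in controls (difference 2.82 ± 0.11). UBB, a polyubiquitin gene, was not called (0.11 ± 0.09). Of 29 deubiquitinases 9 rose and 3 fell (median 0.11), with USP30, a mitochondrial enzyme, at 1.47 and USP5, which recycles free ubiquitin chains, at 0.99. The proteasome-bound USP14 and UCHL5 were not called (0.11 and -0.06).

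Genes of the other degradation route, autophagy, rose as well. Of 13 ATG8 proteins and receptors 9 rose and 0 fell (median 0.50), and of 27 core autophagy genes 12 rose and 1 fell (median 0.37). MAP1LC3B, the LC3 protein of the autophagosome membrane, had 9.45, 9.36 and 9.55 at 71.25 nM, against 7.25, 7.24 and 6.95 in controls (difference 2.30 ± 0.11). SQSTM1 (p62), a receptor for ubiquitinated cargo, had 13.83, 13.84 and 13.85 at 71.25 nM, against 12.05, 12.16 and 12.23 in controls (difference 1.70 ± 0.10), and TAX1BP1 and CALCOCO2, also receptors, rose by 1.07 and 1.0. The initiating kinase ULK1 rose by 1.96 ± 0.10, its partner RB1CC1 by 1.39 ± 0.10 and WIPI1, which binds the growing membrane, by 1.69 ± 0.13. ATG4C was the 1 core gene that fell (-0.41), a call that was lost without control array 1, control array 2 or 71.25 nM array 7 (adjusted p up to 0.092). Of 39 lysosomal genes 17 rose and 8 fell (median 0.17). NPC1, the cholesterol exporter, rose by 1.76 ± 0.10, and the hydrolases CTSD and GLA and the saposin precursor PSAP by 1.67, 1.67 and 1.56. Other hydrolases fell, among them CTSH (-1.51 ± 0.10), GUSB (-1.05 ± 0.12), LIPA (-0.82), CTSB (-0.78) and CTSC (-0.65). The other CTSB probe differed by -0.202 and was not called.

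In the ER, genes of retrotranslocation, of folding and of stress signalling rose. Of 24 genes of ER-associated degradation 16 rose and 2 fell (median 0.48). UFD1L and NPLOC4, partners of the extracting ATPase VCP, rose by 1.38 ± 0.12 and 1.2 ± 0.14, VCP itself by 0.85 ± 0.10 and the ligase SYVN1 (HRD1) by 1.19 ± 0.10. The other SYVN1 probe, at 0.573, was not called. Of 25 ER chaperones and oxidoreductases 12 rose and 5 fell (median 0.26). HSPA5 (BiP), the ER HSP70, had 7.97, 8.01 and 7.89 at 71.25 nM, against 6.28, 6.50 and 6.65 in controls (difference 1.48 ± 0.12). Calreticulin (CALR) rose by 0.62 and HSP90B1 (GRP94) by 0.53 (not called under median scaling, adjusted p = 0.0899), while FKBP11 and the oxidase ERO1L fell (-0.90 and -0.62). Among 15 sensors and eIF2alpha genes 9 rose and 1 fell (median 0.44). PPP1R15A (GADD34), which restores translation, had 12.16, 12.11 and 12.00 at 71.25 nM, against 9.88, 9.86 and 9.90 in controls (difference 2.21 ± 0.10). EIF2AK3 (PERK) rose by 0.73 ± 0.15 and XBP1 by 0.57 ± 0.10, and EIF2AK4 (GCN2) fell (-0.74 ± 0.16). DNAJB9, an ER J-domain protein, had 8.67, 8.59 and 8.52 at 71.25 nM, against 6.58, 6.18 and 6.66 in controls (difference 2.12 ± 0.12).

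The ER stress element, which binds ATF6 and NF-Y, is shown in the promoter of HSPA5, the largest rise of the ER chaperone list. Capitals mark the element, CCAAT and CCACG with any 9 bases between them, in the window at chr9:125241294-125241593, minus strand (RefSeq, GRCh38.p14).
HSPA5: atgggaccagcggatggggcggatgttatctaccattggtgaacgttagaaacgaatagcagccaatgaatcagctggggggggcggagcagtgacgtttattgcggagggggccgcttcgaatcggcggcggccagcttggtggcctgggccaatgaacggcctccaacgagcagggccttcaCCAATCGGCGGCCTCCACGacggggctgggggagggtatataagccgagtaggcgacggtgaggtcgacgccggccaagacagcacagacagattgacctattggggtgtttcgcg
On both strands this element stood in 6 of 25 promoters of the ER chaperone list (24.0%), those of CALR, CANX and HSP90B1 among them. It also stood in 2 of 14 promoters of genes that fell at least 4-fold (14.3%), those of the near-identical FRG2 and FRG2B. The share was 0.186% in the promoters of measured genes and 0.0806% in all promoters.

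The ATF4 pathway had the highest median of any list. Of 15 measured genes 13 rose and 0 fell (median 1.22). DDIT3 (CHOP), a pro-death factor downstream of ATF4, had 10.98, 10.59 and 10.96 at 71.25 nM, against 7.84, 7.83 and 7.95 in controls (difference 2.97 ± 0.11). SESN2, a leucine sensor that restrains mTORC1, had 7.67, 7.55 and 7.52 at 71.25 nM, against 4.94, 4.71 and 4.52 in controls (difference 2.86 ± 0.12), and it was detected on 1 of 3 control arrays. DDIT4 (REDD1), also an mTORC1 inhibitor, had 9.0, 8.91 and 9.13 at 71.25 nM, against 6.76, 6.39 and 6.83 in controls (difference 2.35 ± 0.13). TRIB3, a pseudokinase target of CHOP, rose by 1.49 ± 0.09, ATF3 by 1.97 ± 0.10 and CEBPB by 1.96 ± 0.11. ATF4 itself rose by 1.22 ± 0.10 on its brightest probe, and of its 3 probes 2 were called, with differences from -0.06 to 1.46. NUPR1 and JDP2 were not called.

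Effects on amino acid genes were selective. Of 36 aminoacyl-tRNA synthetases 15 rose and 9 fell (median 0.05), although under median scaling 9 rose and 10 fell. Among the rises were cytosolic enzymes, WARS by 1.28 ± 0.10, GARS by 1.08 ± 0.11, MARS by 0.94 ± 0.10 and SARS by 0.85 ± 0.12, while the cytosolic VARS was not called (-0.11). Among the falls were the mitochondrial MARS2, NARS2 and VARS2 (-1.17 ± 0.14, -1.08 ± 0.11 and -0.96 ± 0.09). The other MARS2 probe differed by -0.3 and was not called. Of 16 amino acid transporters 5 rose and 1 fell (median -0.02). SLC7A11 (xCT), the cystine importer, had 8.63, 8.5 and 8.75 at 71.25 nM, against 6.37, 6.46 and 6.24 in controls (difference 2.26 ± 0.10), and its partner SLC3A2 rose by 1.09 ± 0.10. Of 15 genes of serine, one-carbon and asparagine synthesis 7 rose and 3 fell (median -0.02), which became 3 and 3 under median scaling. CTH, which makes cysteine, had 9.29, 8.98 and 9.40 at 71.25 nM, against 6.86, 6.88 and 6.55 in controls (difference 2.46 ± 0.14). ASNS, asparagine synthetase, rose by 1.26 ± 0.09, and the cytosolic folate enzymes MTHFD1 and SHMT1 fell (-0.83 ± 0.11 and -0.81 ± 0.11).

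The CARE element, bound by ATF4 with C/EBP partners, is shown in the promoter of ASNS, a classical target. Capitals mark TGATGNAA at chr7:97872359-97872658, minus strand (RefSeq, GRCh38.p14).
ASNS: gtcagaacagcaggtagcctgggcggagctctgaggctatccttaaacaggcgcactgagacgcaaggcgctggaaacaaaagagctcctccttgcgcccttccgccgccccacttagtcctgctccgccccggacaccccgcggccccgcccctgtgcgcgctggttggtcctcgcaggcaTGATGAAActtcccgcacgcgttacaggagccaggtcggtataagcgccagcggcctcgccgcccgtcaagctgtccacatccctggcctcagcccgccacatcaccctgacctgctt
On both strands it stood in 1 of 13 promoters of the ATF4 pathway list (7.69%), in 6 of 25 synthetase promoters (24.0%), in 3 of 15 transporter promoters (20%) and in 3 of 11 of the serine and asparagine list (27.3%), in 3 of 17 of the B-lineage list (17.6%), in 1.77% of the promoters of measured genes and in 3.67% of all promoters.

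Enzymes controlled by NRF2, the main factor of the oxidative stress response, rose in 14 of 22 cases, and 0 fell. Their median difference was 0.64. HMOX1, heme oxygenase, had 8.37, 8.40 and 8.25 at 71.25 nM, against 6.12, 5.99 and 6.05 in controls (difference 2.29 ± 0.11). GCLM, the regulatory subunit of glutathione synthesis, rose by 1.82 ± 0.10, TXNRD1, thioredoxin reductase, by 1.61 ± 0.10 and FTH1, ferritin heavy chain, by 1.47 ± 0.12. The catalytic subunit GCLC and the widely used NRF2 readout NQO1 were not called (0.19 ± 0.14 and -0.05 ± 0.15). Of 7 metallothionein and zinc genes 2 rose and 0 fell (median 0.07), the zinc-sensing factor MTF1 (0.64) and MT1F (0.49), whose call was lost without 71.25 nM array 7 (adjusted p = 0.0633).

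MYC, which the series title names, had 11.21, 11.30 and 11.22 at 71.25 nM, against 10.80, 10.96 and 10.63 in controls (difference 0.45 ± 0.11, adjusted p = 0.00691), a rise of 1.36-fold without overlap of the groups. Its other probe differed by 0.22 and was not called, and under median scaling the brighter probe was not called either (adjusted p = 0.177). Of 10 genes of the MYC and MAX network 4 rose and 0 fell (median 0.04). MXD4, a MAX partner that opposes MYC, had 8.0, 8.29 and 8.03 at 71.25 nM, against 6.27, 6.18 and 6.15 in controls (difference 1.91 ± 0.10), and MXD1, also an antagonist, was not detected in controls and was at least 1.48-fold higher at 71.25 nM. Genes whose products build ribosomes in the nucleolus, a process that MYC drives, went mostly down. Of 43 measured 3 rose and 20 fell (median -0.28). RRS1 had 8.95, 9.22 and 9.09 at 71.25 nM, against 10.18, 10.16 and 10.09 in controls (difference -1.06 ± 0.10), NHP2, a core protein of pseudouridylation particles, fell (-0.89 ± 0.09), as did FBL, fibrillarin (-0.54). RRP12 was the largest of the 3 rises (0.68). Of 29 polyamine and nucleotide genes 5 rose and 14 fell (median -0.26). SAT1, which breaks polyamines down, rose by 1.83 ± 0.10, and SRM, spermidine synthase, had 9.08, 9.05 and 8.86 at 71.25 nM, against 10.19, 10.16 and 10.31 in controls (difference -1.22 ± 0.11). IMPDH2, of guanine nucleotide synthesis, and DHODH and CAD, of pyrimidine synthesis, also fell (-1.09, -1.05 and -0.94). For DHODH the other probe differed by -0.435 and was not called.

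The E box, the element of MYC and MAX and also of the TFEB family, is shown in the promoter of SRM, the largest fall of the polyamine and nucleotide list. Capitals mark CACGTG at chr1:11059969-11060268, minus strand (RefSeq, GRCh38.p14).
SRM: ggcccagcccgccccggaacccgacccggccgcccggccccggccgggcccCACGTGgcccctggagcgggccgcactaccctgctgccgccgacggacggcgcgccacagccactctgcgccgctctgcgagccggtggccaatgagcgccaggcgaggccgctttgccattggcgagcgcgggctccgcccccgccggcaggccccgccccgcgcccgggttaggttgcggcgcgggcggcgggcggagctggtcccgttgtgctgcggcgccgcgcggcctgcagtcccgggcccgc
This palindrome stood in 13 of 35 promoters of the nucleolar list (37.1%), most of whose called genes fell, and in 9 of 23 of the lysosome list (39.1%), most of whose called genes rose, in 4 of 11 of the serine and asparagine list (36.4%), in 3 of 9 of the MYC and MAX network (33.3%) and in 0 of 12 of the MHC class II list, against 10.3% of the promoters of measured genes and 7.43% of all promoters.

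CHEK1, the checkpoint kinase CHK1 that the series title names, had 9.33, 9.28 and 9.37 at 71.25 nM, against 9.44, 9.60 and 9.52 in controls (difference -0.19 ± 0.11, adjusted p = 0.184) and was not called. Of 20 checkpoint genes 5 rose and 7 fell (median -0.13), and 5 rose and 2 fell under housekeeping scaling. With single arrays left out the falls numbered 2 (without 71.25 nM array 8) to 7. The called members included TP53BP1 at 1.2 and CDC25C at 1.08, and TIMELESS at -0.65 and RAD1 at -0.64, the last of which was not called on the authors' values without the sample described as 25 nM (adjusted p = 0.0537). Of 45 DNA replication genes 5 rose and 15 fell (median -0.19). LIG1, the replicative ligase, had 6.61, 6.52 and 6.84 at 71.25 nM, against 7.73, 7.83 and 8.06 in controls (difference -1.22 ± 0.14), GINS2 of the replicative helicase differed by -1.16 ± 0.09, and PCNA, the sliding clamp, by -0.94 ± 0.11. The MCM helicase subunits MCM2, MCM3 and MCM6 fell by 0.72, 0.62 and 0.39 on the log2 scale. Of 39 mitosis genes 7 rose and 7 fell (median 0.04). TPX2, a spindle assembly factor, rose by 0.92 ± 0.12, and the kinases AURKB and PLK1 fell (-0.71 ± 0.12 and -0.57 ± 0.10). Of 37 cyclin, CDK inhibitor, E2F and RB genes 11 rose and 8 fell (median 0.14), which became 6 and 7 under median scaling. CDKN1A (p21), itself a proteasome substrate as a protein, had 9.68, 9.67 and 9.58 at 71.25 nM, against 7.63, 7.60 and 7.51 in controls (difference 2.06 ± 0.10). CDKN2C (p18), an INK4 inhibitor of CDK4 and CDK6, was at least 4.57-fold higher on its brightest probe, which no control array detected (means 7.08 at 71.25 nM, against 4.53 in controls), while its other probe differed by 0.17 and was not called. E2F2 and cyclin D1 (CCND1) fell (-1.26 ± 0.14 and -0.81 ± 0.13). Of 20 p53 and stress targets 7 rose and 4 fell (median 0.09). GADD45A, a stress sensor, rose by 2.83 ± 0.13, while FDXR and DDB2, p53 targets of the mitochondrion and of DNA repair, fell (-1.31 ± 0.18 and -1.17 ± 0.14), so the called members of this list went both ways.

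**Figure D3:**
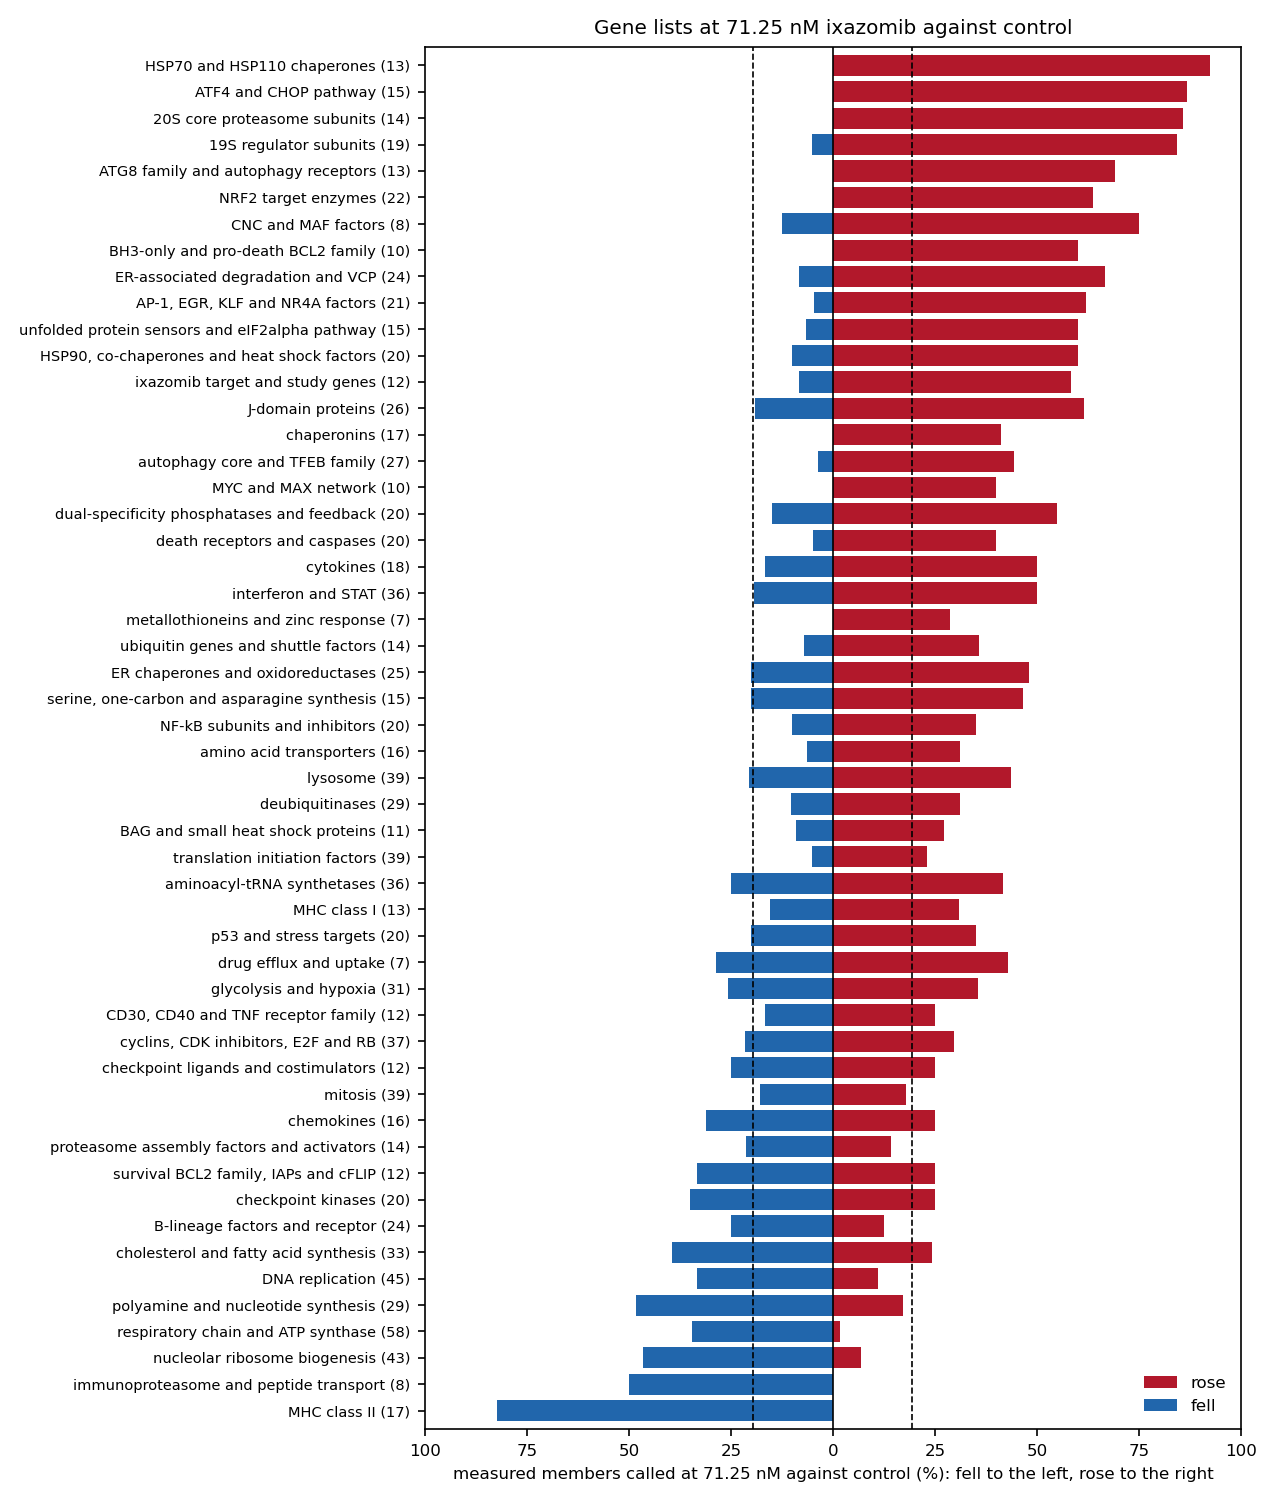
Percent of the measured members of each gene list that rose (red, to the right) or fell (blue, to the left) at 71.25 nM ixazomib against control; the number measured follows each name, and dashed lines mark the share of all genes that rose (19.4%) and fell (19.6%). The HSP70, ATF4, 20S core and 19S regulator lists stand at the top, and MHC class II at the bottom with 14 of 17 fallen.

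Pro-death BCL2 genes rose, and survival genes went both ways. Of 10 measured pro-death BCL2 genes 6 rose and 0 fell (median 0.61). PMAIP1 (NOXA), which neutralises MCL1, had 10.53, 10.56 and 10.49 at 71.25 nM, against 9.24, 9.32 and 9.30 in controls (difference 1.24 ± 0.10). BCL2L11 (BIM) had 5.98, 6.11 and 6.36 at 71.25 nM, against 5.12, 4.83 and 5.02 in controls (difference 1.16 ± 0.15), BAK1, a pore-forming effector, rose by 1.06 ± 0.14, and BBC3 (PUMA) was not called (-0.08). Of 12 survival genes 3 rose and 4 fell (median 0.05), and 5 rose and 3 fell under housekeeping scaling. MCL1 rose by 0.84 ± 0.11 on its brighter probe and by 0.75 on the other, and BCL2L1 (BCL-XL) had 9.83, 9.87 and 9.75 at 71.25 nM, against 10.72, 10.64 and 10.63 in controls (difference -0.84 ± 0.09). BCL2 fell on its brightest probe (-0.54 ± 0.16), but another of its probes rose by 0.82, so its direction depends on the probe. The fall was not called without control array 3 or without 71.25 nM array 9 (adjusted p = 0.0822 and 0.0805). Of 20 death receptor and caspase genes 8 rose and 1 fell (median 0.19). The TRAIL receptors TNFRSF10A and TNFRSF10B rose by 0.93 ± 0.15 and 0.89 ± 0.11, and the initiator CASP8 by 0.76 ± 0.18.

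Immediate early genes and their feedback rose. Of 21 AP-1, EGR, KLF and NR4A factors 13 rose and 1 fell (median 0.69). FOS had 7.16, 6.85 and 7.16 at 71.25 nM, against 4.99, 4.40 and 4.67 in controls (difference 2.37 ± 0.16), with the controls near the detection limit, and JUN had 12.42, 12.32 and 12.24 at 71.25 nM, against 10.85, 10.67 and 10.85 in controls (difference 1.54 ± 0.11). EGR1 rose by 1.59 ± 0.11 and KLF6 by 1.63 ± 0.10. BATF3, an AP-1 factor that Hodgkin and anaplastic lymphoma cells express strongly, fell (-0.84 ± 0.10). Of 20 dual-specificity phosphatase and feedback genes 11 rose and 3 fell (median 0.39). DUSP5 rose by 1.96 ± 0.11 and SOCS3, a brake on JAK-STAT signalling, by 1.68 ± 0.13, while SPRY1 and SPRY2, brakes on receptor kinase signalling, fell (-0.88 and -0.71). Of 20 NF-kB subunits and regulators 7 rose and 2 fell (median 0.16). NFKBIZ rose by 1.94 ± 0.12 and RELA by 0.76 ± 0.16, and the kinase gene IKBKE fell (-0.98 ± 0.14). NFKBIA, which encodes IκBα, had 12.35, 12.52 and 12.41 at 71.25 nM, against 12.42, 12.52 and 12.36 in controls, and these groups overlapped (difference 0.00 ± 0.09).

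Secreted signals changed in both directions. Of 18 cytokines 9 rose and 3 fell (median 0.33). IL6 had 11.59, 11.66 and 11.82 at 71.25 nM, against 8.95, 8.95 and 8.60 in controls (difference 2.85 ± 0.12), TNF rose by 2.21 ± 0.09, IL13, a growth factor of Hodgkin cells detected on 1 of 3 control arrays, by 1.23 ± 0.11 and IL12A by 1.37 ± 0.13. EBI3, which pairs with IL12A in the cytokine IL-35, fell (-1.01 ± 0.10), and so did IL5 (-0.94 ± 0.19). Of 16 chemokine and receptor genes 4 rose and 5 fell (median 0.09). Beside the rises of IL8 and of the CCL3 genes given above, CCL22, which draws regulatory T cells to Hodgkin tumours, had 4.85, 4.66 and 4.92 at 71.25 nM, against 7.05, 6.87 and 6.90 in controls (difference -2.13 ± 0.13), with 2 of 3 arrays at 71.25 nM above the detection limit. CCL17 (TARC), the other such chemokine, had 12.68, 12.66 and 12.67 at 71.25 nM, against 13.93, 13.80 and 13.83 in controls (difference -1.18 ± 0.10). CXCR4, the receptor for CXCL12, and CCL2 also fell (-1.82 ± 0.15 and -1.36 ± 0.15), CCL2 to levels detected on 1 of 3 arrays at 71.25 nM. Among the falls of the Hodgkin markers were FUT4, the enzyme behind CD15 (-1.42 ± 0.12), and fascin, FSCN1 (-0.59 ± 0.12).

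MHC class II genes, which present antigen to helper T cells, had the largest share of falls of the lists. Of 17 measured genes 0 rose and 14 fell (median -0.68). HLA-DMB, which loads peptides, had 8.39, 8.51 and 8.32 at 71.25 nM, against 10.55, 10.66 and 10.62 in controls (difference -2.20 ± 0.10), and HLA-DQB1 had 8.88, 9.17 and 8.91 at 71.25 nM, against 10.82, 10.83 and 11.05 in controls (difference -1.91 ± 0.12). The invariant chain CD74 had 11.95, 11.71 and 12.13 at 71.25 nM, against 12.77, 12.82 and 12.26 in controls (difference -0.68 ± 0.16). CIITA, the transactivator of these genes, had 6.77, 6.87 and 6.82 at 71.25 nM, against 7.61, 7.58 and 7.86 in controls (difference -0.87 ± 0.11), and RFX5, of the factor that binds their promoters, fell (-0.88 ± 0.12). The other RFX5 probe differed by -0.134 and was not called. HLA genes are polymorphic and near-identical to each other, and their probes may share signal. HLA-DQA1, RFXAP and RFXANK were not called.

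MHC class I genes went both ways. Of 13 class I genes 4 rose and 2 fell (median -0.12), and HLA-B, HLA-C and B2M were not called (-0.26, 0.20 and -0.12). MICA and MICB, stress ligands of the NK-cell receptor NKG2D, rose instead, MICB with 9.82, 9.84 and 9.76 at 71.25 nM, against 8.42, 8.31 and 8.40 in controls (difference 1.43 ± 0.09) and MICA with 6.30, 6.05 and 6.37 at 71.25 nM, against 4.89, 4.93 and 5.00 in controls (difference 1.30 ± 0.14). ULBP2, a further NKG2D ligand that was chosen after its value was seen, had 8.27, 8.12 and 8.47 at 71.25 nM, against 5.06, 5.73 and 5.56 in controls (difference 2.84 ± 0.17). The peptide editor genes TAPBP and TAPBPL fell (-0.95 ± 0.12 and -1.05 ± 0.14). MICB and MICA each carried 1 match to the heat shock element in the promoter window, and that of MICB is shown, at chr6:31497895-31498194, plus strand, with the element in capitals (RefSeq, GRCh38.p14).
MICB: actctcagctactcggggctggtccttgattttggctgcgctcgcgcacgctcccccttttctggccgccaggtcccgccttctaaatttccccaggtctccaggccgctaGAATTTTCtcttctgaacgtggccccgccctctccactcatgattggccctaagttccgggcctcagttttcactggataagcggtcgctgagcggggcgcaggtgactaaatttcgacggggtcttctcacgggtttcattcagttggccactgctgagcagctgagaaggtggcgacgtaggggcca

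Interferon and STAT genes leaned upward. Of 36 interferon, JAK and STAT genes 18 rose and 7 fell (median 0.25). IRF1 rose by 1.40 ± 0.13, IRF9, of the interferon-activated complex, by 1.24 ± 0.11, IFIT2 by 1.2 ± 0.15 and STAT2 by 0.89 ± 0.09, while ISG15 fell (-0.44). IRF4, a survival factor of Hodgkin cells, fell by less (-0.32 ± 0.11), and STAT3 and STAT6 did too (-0.38 and -0.30). The calls of these 3 were lost when single arrays were left out. For IRF4 these were control arrays 2 and 3 and 71.25 nM arrays 7 and 9 (adjusted p up to 0.114), and for STAT3 control arrays 1 and 2 and each array of 71.25 nM (up to 0.0931). For STAT6 they were control arrays 1 and 3 and 71.25 nM arrays 7 and 8 (up to 0.134). Of 24 B-lineage genes 3 rose and 6 fell (median -0.21), or 25% falls against 19.6% of all genes. BLK, a kinase of the B-cell receptor, had 7.39, 7.50 and 7.41 at 71.25 nM, against 9.03, 8.84 and 8.79 in controls (difference -1.45 ± 0.11), and IKZF1 (Ikaros) and SPIB fell (-1.39 ± 0.11 and -1.10 ± 0.20). ID2 and NOTCH1 rose by 0.95 ± 0.10 and 0.88 ± 0.14. ID3 and TCF3 fell (-1.04 and -1.01), ID3 to levels detected on 1 of 3 arrays at 71.25 nM. Of 12 TNF receptor family genes 3 rose and 2 fell (median 0.02), and TNFSF9, the ligand of 4-1BB, rose by 1.66 ± 0.12. Of 12 checkpoint ligands and costimulators 3 rose and 3 fell (median 0.05). CD86 and CD58, an adhesion ligand of T and NK cells, fell (-1.05 ± 0.09 and -0.89 ± 0.10), and SLAMF1 rose by 0.97 ± 0.10.

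Metabolic lists moved in part. Of 58 nuclear genes of the respiratory chain and ATP synthase 1 rose and 20 fell (median -0.18), with ATP5G1 at -1.21 ± 0.10 and NDUFB10 at -1.15 ± 0.13. Of 33 cholesterol and fatty acid genes 8 rose and 13 fell (median -0.10), which became 10 and 10 under housekeeping scaling. The falls included the sterol enzymes TM7SF2 (-1.26 ± 0.15) and LSS (-0.77 ± 0.14), LSS with a second probe at 0.01 that was not called. Of 31 glycolysis and hypoxia genes 11 rose and 8 fell (median 0.08). SLC2A3, the glucose transporter GLUT3, rose by 1.93 ± 0.12, and LDHA and TXNIP, a brake on glucose uptake, fell (-0.60 ± 0.11 and -1.15 ± 0.10). Of 39 translation initiation genes 9 rose and 2 fell (median 0.12), but under median scaling 1 rose and 2 fell, and the largest rise was that of EIF1 (0.95 ± 0.12). Of 7 drug transport genes 3 rose and 2 fell (median 0.08). ABCB1, the efflux pump P-glycoprotein, had 8.32, 8.07 and 8.12 at 71.25 nM, against 6.36, 6.69 and 6.32 in controls (difference 1.71 ± 0.13), with its other probe also called at 0.56, and ABCC4 and ABCB10 fell (-0.93 and -0.96).

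Some genes were seen on 1 side of the comparison only. For 166 genes a probe was detected on all 3 arrays at 71.25 nM and no probe of the gene on any control array, and 136 of them were called. Of all genes 39.1% were called. Detection on the tested arrays themselves picked the genes of each side, so a high share of calls is built in. CDKN2C is not among the 166, since its other probe was detected in controls. Apart from HSPA1A, the highest were LOC652750 (at least 4.0-fold higher), EMP1, an epithelial membrane protein gene (at least 2.98-fold), PLEK, pleckstrin (at least 2.94-fold), SCARNA8 (at least 2.86-fold), C17orf91 (at least 2.81-fold), ADAP2 (at least 2.57-fold), JMY, a p53 cofactor and actin nucleator (at least 2.49-fold), MAPRE3 (at least 2.41-fold) and NDRG1 (at least 2.4-fold). Detection in controls alone applied to 99 genes, 89 of them called. At 71.25 nM these were lower by at least 2.76-fold for PRR17, at least 2.65-fold for CYP26A1, which degrades retinoic acid, at least 2.42-fold for CT45A6, at least 2.27-fold for PODXL, podocalyxin, and at least 2.18-fold for ZNF423. In 35 genes, probes were called in opposite directions, most widely in ZNF580 (0.55 and -1.27), CT45A1 (0.49 and -1.2), MRRF (0.72 and -0.84), BCL2 (0.82 and -0.54) and NIN (0.69 and -0.67). Of 81 called genes of the lists or largest changes that are named here and have several probes, all probes gave the call in 59, a probe was not called in 21 and calls were opposed in BCL2. The widest such gaps were in LSP1 (-2.44 and 0.25), CDKN2C, CYP4Z2P, DNAJB2, KLF6 (1.89 and 0.21), ATF4 (1.46 and -0.06) and MAFG (1.25 and -0.06). The CT45A1 rise was not called without control array 3 or without 71.25 nM array 9 (adjusted p = 0.0702 and 0.0775), and the BCL2 fall has the limits given above.

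Against 25 nM, the higher dose changed 877 genes (5.87%), 446 upward (2.98%) and 431 downward (2.88%), 50 of them by at least 2-fold (0.334%). At 25 nM itself, 4037 genes (27.0%) differed from control. Both comparisons with control use the same 3 control samples, so the doses are set side by side and tested against each other. HSPA6 had 10.54, 10.91 and 10.58 at 71.25 nM, against 8.28, 8.28 and 8.32 at 25 nM (difference 2.38 ± 0.12, adjusted p = 2.61e-07), and DNAJB1 had 11.48, 11.18 and 11.46 at 71.25 nM, against 9.72, 9.75 and 9.53 at 25 nM (difference 1.71 ± 0.12). RN5S9 was higher by 2.06 ± 0.14, SESN2 by 1.71 ± 0.12, CDKN2C by 1.54 ± 0.18, DDIT4 by 1.44 ± 0.13 and CCL3 by 1.37 ± 0.11. HSPA7, an HSP70 pseudogene near-identical to HSPA6, was higher by 1.83 ± 0.14. FRG2, FRG2B and LSP1 were lowest relative to 25 nM (-1.65, -1.54 and -1.48), followed by LOC389816, CYP4Z2P, CYP4Z1, LRRC26, PLA2G12B, MFSD3 and CXCR3 (-1.07). PLA2G12B, a secreted phospholipase family gene, had 8.95, 9.09 and 9.06 at 71.25 nM, against 10.32, 10.27 and 9.98 at 25 nM, and its difference at 25 nM from control was 0.02.

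The lists differed in how much the higher dose added. Of 15 ATF4 genes 9 were higher and 0 lower at 71.25 nM than at 25 nM, and of 13 HSP70 and HSP110 genes 7 were higher and 0 lower. Among the 14 core and 19 regulator subunits of the proteasome no difference between doses was called. Since only 5.87% of all genes were called there, few calls were due in lists of this size. Medians of the core and regulator subunits against control were 0.52 and 0.73 at 71.25 nM and 0.61 and 0.78 at 25 nM. PSMB5 had 12.21, 12.20 and 12.36 at 71.25 nM, against 12.25, 12.20 and 12.12 at 25 nM (difference 0.07 ± 0.10), and PSMD2 had 11.47, 11.29 and 11.31 at 71.25 nM, against 11.61, 11.46 and 11.42 at 25 nM (difference -0.14 ± 0.10). Of 22 NRF2 enzymes 3 were higher and 1 lower, and the list medians were 0.64 at 71.25 nM and 0.75 at 25 nM. Of 17 MHC class II genes 0 were higher and 5 lower. BCL2L1 had 9.83, 9.87 and 9.75 at 71.25 nM, against 10.72, 10.64 and 10.68 at 25 nM (difference -0.87 ± 0.09, adjusted p = 0.000134), and at 25 nM its difference from control was 0.02. The NF-kB targets BIRC3 (cIAP2) and NFKB2 were also lower at the higher dose (-0.55 ± 0.10 and -0.65 ± 0.11), and so was NFKBIA (-0.40 ± 0.09), although its call was lost when any array of 25 nM, or 71.25 nM array 7 or 9, was left out (adjusted p up to 0.0948). Leaving out single arrays of these groups gave 372 (without 25 nM array 6) to 630 (without 71.25 nM array 8) called genes, and the authors' own normalized values gave 1777, so the number of genes that separate the doses is loosely set.

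**Figure D4:**
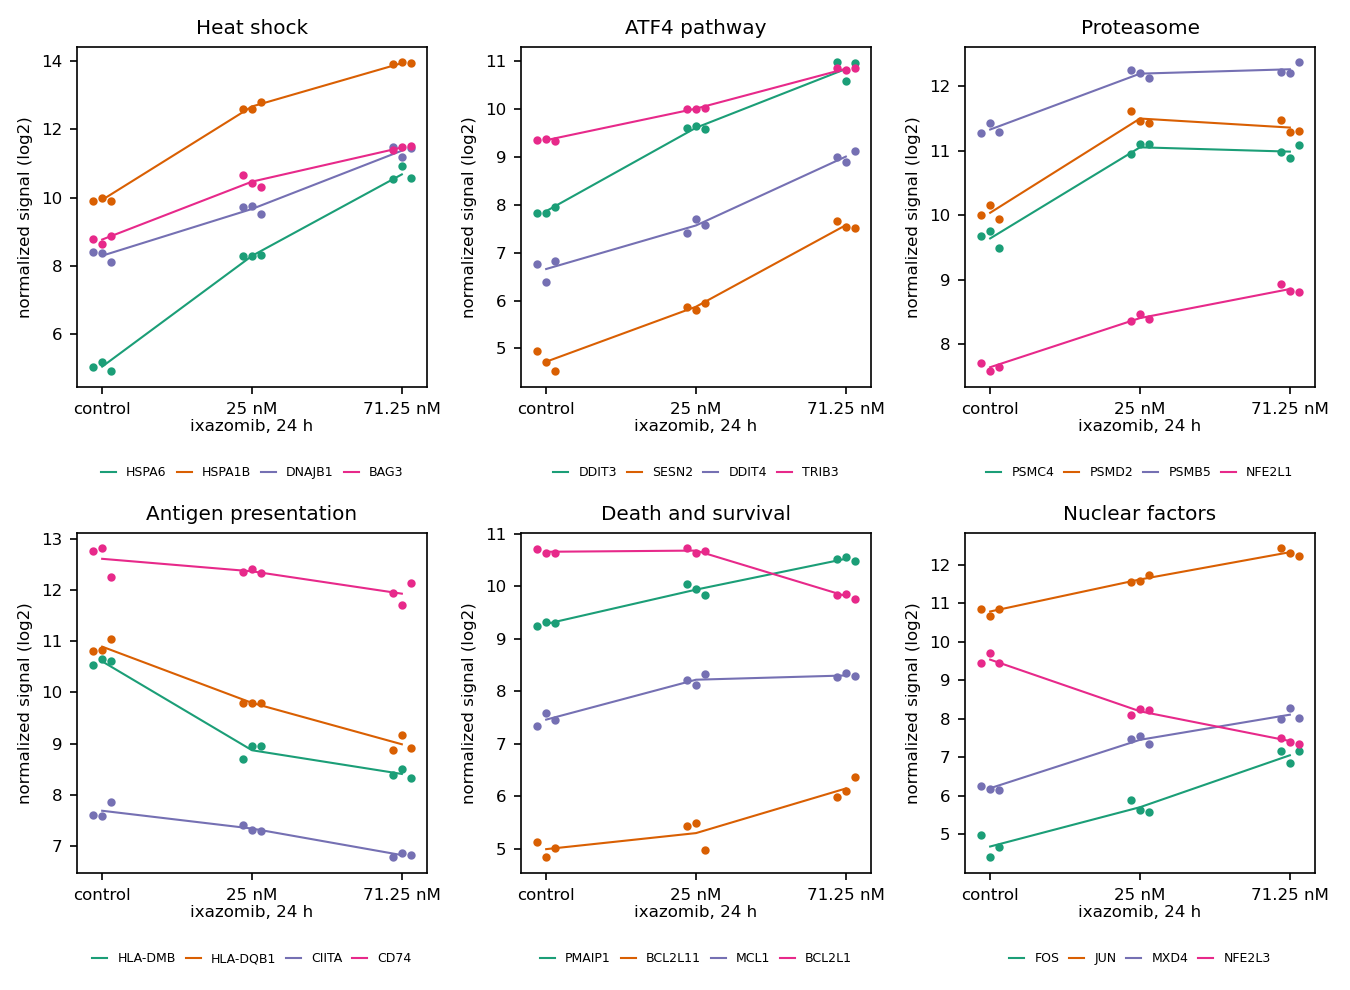
Normalized signal (log2, vertical axis) in control cells and after 24 h at 25 nM and 71.25 nM ixazomib (horizontal axis, categories not to scale); points are arrays, 3 per group, and lines join group means. Heat shock and ATF4 genes step up again at 71.25 nM, proteasome subunits show no called difference between the doses, and BCL2L1 lies lower at 71.25 nM than at 25 nM.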

How the data were processed

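Fluorescence intensity and a detection p-value per probe were deposited by the authors as non-normalized signals of 12 arrays, 3 per group. The column names give group and array number only, so arrays were not tied to replicate numbers. The authors' processed signals were also deposited and were used as an alternative. By the series' own account, housekeeping genes and quantile normalization set their scale and a one-way test with FDR adjustment chose the genes. No source used here names the scanner software.

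Signals were corrected with limma 3.58.1 (R 4.3.3) by normexp with negative controls inferred from the detection p-values and offset 16, then quantile normalized and taken to log2. Of 47227 probes, 20414 detected (p under 0.05) on at least 3 of 12 arrays were kept. One model held a mean for each of the 4 groups, with 8 residual and 5.54 prior degrees of freedom and Benjamini-Hochberg adjustment over all kept probes. The threshold was an adjusted p of 0.05. With 3 arrays against 3, a permutation test of 1 gene cannot go below 0.1. No 2 arrays held identical values. The median SE of a difference was 0.133, and the number of arrays limits the precision. Each of 14953 genes was read on its brightest kept probe, by the mean of all 12 arrays, and 3343 genes had several kept probes. The file gives 3270 probes no symbol and 54 a symbol turned into a date, and these were not named. Where no array of a group detected a probe, the fold is a bound, set against the probe's own value or, if higher, the array's lowest detected signal.

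The gene lists, the members and the rule for named genes were chosen with earlier results of these data known. Named were MYC, CHEK1 and PSMB5, the 15 largest rises and falls, up to 5 called rises and falls per list with key members, the 10 highest and lowest genes between doses, genes detected on 1 side, and the 5 widest probe disagreements; some genes under this rule are not reported here. Promoters came from RefSeq (GRCh38.p14). Data were simulated for 71.25 nM against control on 20414 probes, with 200 changed. The test recovered 85% of 2-fold and 37% of 1.41-fold changes, with 7 false calls. In the real data 39.1% of genes were called, which loosens the adjusted threshold, so these rates hold for the simulated setting only. Alternatives covered background correction, normalization, probe filter, probe choice, samples in the model, prior, the methods' one-way test, the authors' values, a replicate block, and each array left out.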

Additional observations from a re-analysis of the deposited data

How the results depend on the processing

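The counts of called genes, rises and falls at 71.25 nM against control stayed within 1.5 times of 5840, 2902 and 2938 under all 20 alternatives, between 4975 (median scaling) and 6269 called, and single arrays left out gave 5018 to 5416. At least 2-fold changes, 896 in the main setting, numbered 313 with no background correction, 492 with offset 50, 317 in the authors' values, 317 in these with the replicate block and 315 without the sample described as 25 nM, and 881 to 952 with single arrays left out. Housekeeping scaling, with GUSB and PGK1 among its named genes, shifted the median of all genes by 0.131. Same-numbered samples of the groups did not deviate together (r = 0.04, -0.286 and -0.199), so the numbers were not taken to pair them. On the authors' values the replicate block gave 6177 called genes, against 6263 without it, and between doses 1625 against 1777. Between 71.25 nM and 25 nM the 877 calls became 400 under median scaling, and 372 to 630 with single arrays left out. At an unadjusted p under 0.05, 7037 genes differed from control and 3343 between doses. Of 302 named genes 275 were called, and 256 of these kept call and direction throughout, as did 21 of 22 called between doses. The other 19 lost the call at least once, median scaling ending 12 of these calls, among them those of MYC, HSPA9, HSP90AA1 and HSP90B1. CT45A1 turned to -0.178 with the mean of its probes. Uncalled genes crossed 0 as follows. With housekeeping scaling BBC3 was at 0.0816, NQO1 at 0.0745, RFXANK at 0.014 and RFXAP at 0.104, with median scaling HSPA14 at -0.0879, with the mean of probes PSMD12 at 0.55 and UBB at -0.0772, and without the sample described as 25 nM NFKBIA at 0.0322 and RFXAP at 0.000471. With single arrays left out, BBC3 ranged from -0.168 to 0.00211, HLA-DQA1 from -0.128 to 0.0129, HSPA14 from -0.0053 to 0.019, NFKBIA from -0.0517 to 0.0383, NQO1 from -0.185 to 0.0629, PSMD12 from -0.239 to 0.0784 and RFXAP from -0.1999 to 0.0307. The causes of these shifts were not tested. Of 54 counts of at least 5 rises or falls in a list, 7 moved by over 1.5 times with single arrays left out: checkpoint falls (7, or 2 to 7) and rises (5, or 3 to 5), chaperonin rises (7, or 3 to 5), J-domain falls (5, or 3 to 5), ER chaperone falls (5, or 3 to 5), mitosis falls (7, or 4 to 6) and interferon and STAT falls (7, or 3 to 5). The size of a fold near background depends on the correction, and a gene below detection has only a bound.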

Other observations

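Beside the lists described above, 13 families were taken by the start of the gene symbol after the other results were known, and their counts are descriptions. Of 77 measured mitochondrial ribosomal proteins, which translate the proteins encoded in mitochondria, 9 rose and 30 fell at 71.25 nM (median -0.18), against 19.4% and 19.6% of all genes. MRPS26 averaged 8.18 at 71.25 nM and 9.21 in controls (difference -1.03 ± 0.10), and MRPL34 averaged 9.50 at 71.25 nM and 10.50 in controls (difference -1.0 ± 0.09). Of 85 ribosomal proteins of the cytosol 0 rose and 15 fell (median -0.04), with RPL29 at -1.63 ± 0.10 and RPL36A lowest. Probes for these abundant genes may also read processed pseudogenes. Of 29 splicing factors 7 rose and 9 fell (median -0.23), among the falls SFRS7, now SRSF7, at -0.97 ± 0.10.

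Of 19 vacuolar ATPase subunits, which acidify lysosomes, 9 rose and 1 fell (median 0.24), and 11 of the 19 also stand in the lysosome list above. ATP6V1B2 averaged 11.18 at 71.25 nM and 10.19 in controls (difference 1.0 ± 0.10), and ATP6V0E2 was the 1 fall (-0.92 ± 0.10). Of 28 Mediator subunits, which link transcription factors to RNA polymerase II, 12 rose and 2 fell (median 0.16), with MED31 at 1.22 ± 0.11. Of 40 TRIM proteins, many of them ubiquitin ligases, 14 rose and 4 fell (median 0.12), with TRIM69 at 1.58 ± 0.14. Other families went both ways. Of 57 histone genes 12 rose and 14 fell, HIST1H2BK at 1.2 and the replication-dependent HIST1H4C at -0.97. Of 22 tubulin genes 7 rose and 6 fell, TUBB2A at 1.18 and TUBA3E at -0.86, and all 6 that differed between doses were lower at 71.25 nM than at 25 nM. Of 41 RAB GTPases 11 rose and 7 fell, of 295 zinc finger genes 49 rose and 45 fell, of 140 small nucleolar RNA genes 17 rose and 29 fell, of 30 glycosyltransferases 5 rose and 7 fell, and of 12 peroxins 3 rose and 2 fell.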
